A study of Caenorhabditis elegans with 2 samples.

Results

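The SCC-1 peaks of Caenorhabditis elegans chromosome III were all peaks that the authors' list places on that chromosome, and they numbered 920 of the 4534 peaks on 6 chromosomes. They were chosen by chromosome alone, with no use of score or width. The list came from chromatin immunoprecipitation followed by sequencing (ChIP-seq) with a polyclonal SCC-1 antibody raised in rabbit and purified by affinity, on whole hermaphrodites of the strain fem-2(b245), genotype fem-2(b245)III, kept at 20 °C. The input library came from worms of the same strain, genotype, sex and stage, so both libraries carried the mutant allele and no wild-type sample was compared. The stage was labelled as young adult with a germline, whereas the growth protocol in the labels describes cultures grown until gravid, and gravid adults carry embryos. Chromatin of germline, somatic and any embryonic cells was therefore pooled, and the list cannot tell them apart. There was 1 ChIP library and 1 input library, so no replicate error could be given and no test across samples was possible.

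SCC-1 is the kleisin of mitotic cohesin. Together with a pair of SMC proteins and SCC-3 it forms a ring that holds sister chromatids together from replication until separase cleaves the kleisin at anaphase, and cohesin rings also form chromatin loops in interphase. In meiosis of the worm, the kleisins REC-8, COH-3 and COH-4 take over much of this role. Worm chromosomes are holocentric, with kinetochores along their length, and each autosome is commonly divided into a gene-rich centre with little recombination and arms that recombine more and hold more repeats. Chromosome III is also the chromosome of fem-2, whose phosphatase product acts in sex determination, and it carries Hox genes of the worm.

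Chromosome III was one of the 2 autosomes with the densest SCC-1 peaks. It held 21.5% of the 4282 autosomal peaks on 16.7% of the autosomal length. Its density was 66.8 peaks per Mb, with an exact Poisson 95% interval of 62.6 to 71.3, against 49.0 (47.4 to 50.7) over I, II, IV and V together. The ratio was 1.36, with a Clopper-Pearson 95% interval of 1.27 to 1.47. Taken singly, III was denser than II (ratio 1.32, 1.20 to 1.46), IV (1.44, 1.31 to 1.59) and V (1.81, 1.65 to 1.9986), whereas its ratio to I was 0.989 and the interval of 0.904 to 1.08 included 1. These intervals cover counting error and treat peaks as independent, which neighbouring peaks are not. With the chromosome as the unit, 1 chromosome against 4 cannot give an exact permutation p under 0.2.

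The bases covered followed the same order, except that III lay above I. Peaks covered 1894 kb or 13.8% of III, against 9.58% of the other autosomes together and 13.1% of I. Per 1000 protein-coding genes, III held 348 peaks, close to the 353 of I and above the 230 of the other autosomes pooled. The gene numbers come from a table of another build and served for these totals alone.

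The surplus of peaks was not spread evenly along the chromosome. Arms were taken as the outer 2 of 4 equal parts by length, and the centre as the rest. The left arm of III, from 1 to 3442969, held 141 peaks or 41.0 per Mb (34.5 to 48.3). The centre, which ends at 10328907, held 552 peaks or 80.2 per Mb (73.6 to 87.1). The right arm held 227 peaks or 65.9 per Mb (57.6 to 75.1). The left arm was thus the poor end of III, with a density 0.621 times that of the right arm (0.4998 to 0.770) and 0.511 times that of the centre (0.422 to 0.616). The right arm stood at 0.822 times the centre (0.702 to 0.962).

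Set against the same parts of the other autosomes pooled, the centre and right arm of III were dense, while its left arm was neither dense nor poor beyond counting error. The left arm stood at 0.954 times the left arms of I, II, IV and V together, with an interval of 0.791 to 1.14 that included 1. It was denser than the left arms of II (1.4997, 1.16 to 1.95) and V (1.40, 1.10 to 1.77). The centre stood at 1.43 times the other centres (1.30 to 1.57), and the right arm at 1.61 times the other right arms (1.38 to 1.88). Chromosome I had the reverse arrangement, with a left arm 1.46 times as dense as its right arm (1.21 to 1.77), so that III and I matched in total but not in layout. The left arm of III held 0.573 times the density of the left arm of I (0.464 to 0.705), and the right arm of III held 1.35 times that of I (1.11 to 1.65). Chromosome II was the other autosome with a poor left arm, at 0.475 times its right arm (0.372 to 0.602). On IV the ratio of left to right arm was 1.31 (1.06 to 1.62), and on V it was 1.11 (0.875 to 1.41).

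Both arms together held 368 of the 920 peaks, or 40% (36.8 to 43.2) on 50% of the length, against 42.7% (41.1 to 44.4) on the other autosomes, and these intervals overlapped. Of the arm peaks of III, 38.3% (33.3 to 43.5) lay on the left, against 51.2% (48.6 to 53.8) over the other autosomes. The latter ran from 32.2% on II, whose interval of 27.1 to 37.6 overlaps that of III, to 59.4% on I.

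**Figure D1:**
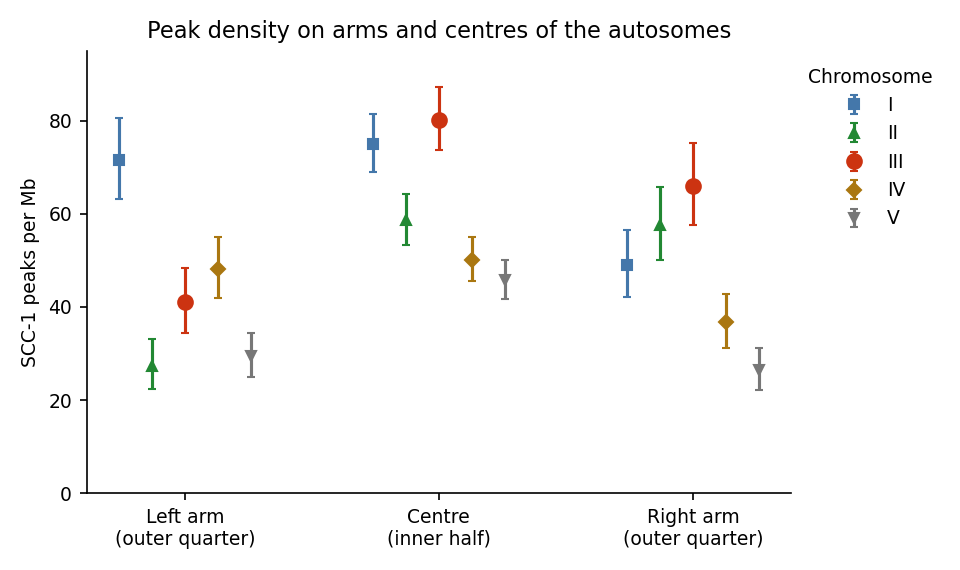
Peaks per Mb (y axis) on the left arm, centre and right arm (x axis) of the 5 autosomes, with exact Poisson 95% intervals as bars. Chromosome III lies at 41.0 on the left arm, between IV and V, and above the other autosomes in the centre (80.2) and on the right arm (65.9), where the intervals overlap those of I in the centre and of II on the right arm.

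In windows of 1 Mb the change came between the third and the fifth window. The 3 windows of the first 3 Mb held 42, 29 and 47 peaks, the fourth held 65, and the fifth and sixth held 86 and 89. From 3000001 to 11000000 the density was 78.9 per Mb, against 39.3 in the first 3 Mb. No window of these 8 Mb held fewer than 65 peaks. The densest window, from 8000001 to 9000000, held 90 peaks that covered 18.0% of its bases, and the emptiest, from 1000001 to 2000000, held 29 that covered 5.26%. The next 2 complete windows after 11000000 held 58 peaks each, and the last 772 kb held 55, or 71.3 per Mb. Over the 13 complete windows the count was 66.5 ± 18.9 (SD), and 10 of the 13 lay above 48, the median of the 67 windows of the other autosomes.

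Over 10 equal parts of the chromosome the density rose from 34.9 per Mb in the first to 40.7, 62.4 and 90.8 in the next 3. It then stayed between 73.3 and 83.5 up to the eighth. The ninth stood at 53.7 (42.2 to 67.5) and the last at 69.0 (55.8 to 84.3), intervals that overlap. The end of the right arm was thus not as poor as the end of the left, whose interval in the first part was 25.7 to 46.2.

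**Figure D2:**
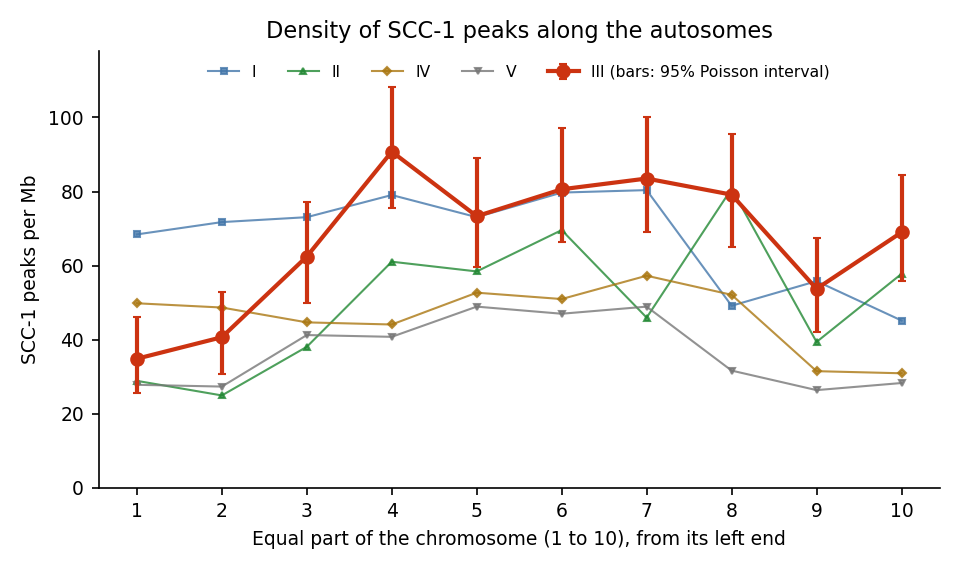
Peaks per Mb (y axis) in each of 10 equal parts of the 5 autosomes from left to right (x axis), with exact Poisson 95% intervals on III. The line of III climbs from 34.9 in the first to 90.8 in the fourth, and its last part (69.0) lies above that of I (45.2).

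Peaks of the poor left arm were also narrower at the median than those of the centre, and few of them had the highest scores. The score is the authors' own value for each peak within this list, on a scale that the file does not state, and values of exactly 3100 occur in 437 peaks of the list, so peaks of 3100 or more were treated as 1 tied class, here called the ceiling class. The median width was 1359 bp on the left arm, with an exact order-statistic 95% interval of 1225 to 1544, against 1621 bp (1542 to 1743) in the centre and 1519 bp (1368 to 1718) on the right arm. The intervals of left arm and centre overlapped, though only just. Narrower peaks on the left arm were not particular to III. On the other autosomes pooled the medians were 1395 bp (1341 to 1467) on left arms and 1583 bp (1528 to 1633) in centres. The median score on III was 272 (183 to 499) on the left, 370 (325 to 462) in the centre and 421 (327 to 587) on the right, and these 3 intervals overlapped. Width and score are related across the peaks of III (Spearman's rho = 0.70 over 920 peaks, which are not independent), so the 2 measures are not separate evidence.

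The ceiling class was the scarcest on the left arm. It held 6 of the 69 ceiling peaks of III, against 41 in the centre and 22 on the right arm. As shares of the peaks of each part these were 4.26% (1.58 to 9.03), 7.43% (5.38 to 9.94) and 9.69% (6.17 to 14.3). The intervals of these shares overlap. Between the arms the counts give a ratio of left to right of 0.273 (0.0905 to 0.694). That interval overlaps the 0.4998 to 0.770 of all peaks, so between the arms of III a scarcity beyond that of peaks in general was not shown. For peaks scoring from 50 up to 100, by contrast, the arms held 35 and 34 peaks, a ratio of 1.03 (0.624 to 1.70). Scores of 100 to under 250 gave 0.653 (0.405 to 1.04), and those of 250 to under 500 gave 0.432 (0.225 to 0.797). The ratio was 0.703 (0.409 to 1.19) for scores of 500 to under 1000 and 0.542 (0.323 to 0.891) for those of 1000 to under 3100. It was below 1 in all classes but the lowest, 2 of these intervals included 1, and the intervals of the lowest and the highest class overlap slightly. On the left arms of the other autosomes pooled, the ceiling share was 11.8% (9.58 to 14.4), which the interval of III did not reach. The ceiling class stood there at 5.07 peaks per Mb, against 1.74 on the left arm of III. Singly, the shares of II and V had intervals above that of III, whereas those of I and IV overlapped it. The longest stretch of III without a ceiling peak ran from 1952670 to 3067585 in its left arm. The midpoints of the peaks that bound it lay 1118 kb apart, against a median of 144 kb between neighbouring ceiling peaks of III.

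**Figure D3:**
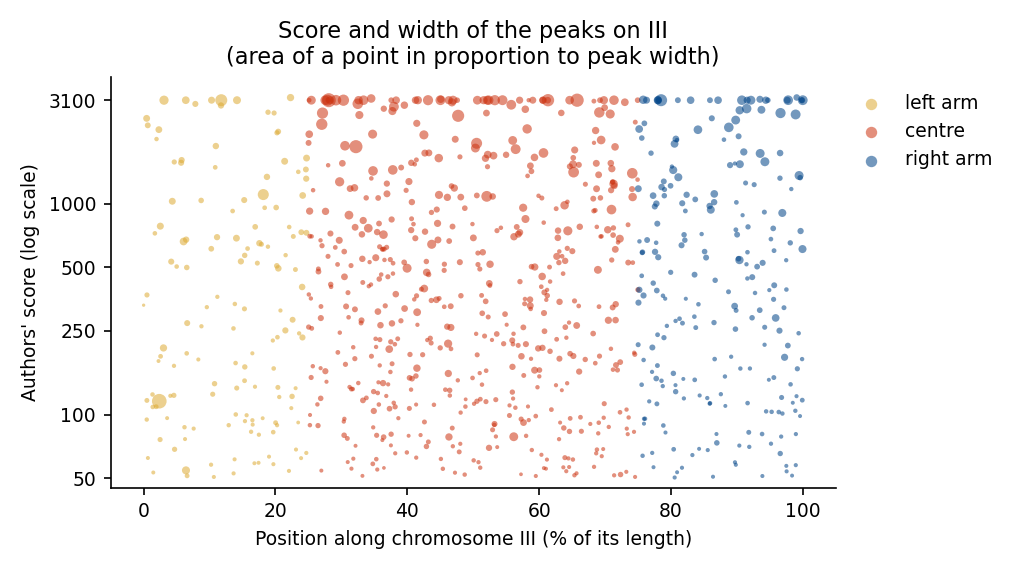
Score of each of the 920 peaks (y axis, log scale) by position along chromosome III (x axis, % of length), coloured by arm or centre, with the area of a point in proportion to peak width. The left arm as a whole holds fewer points per length than the centre or the right arm, and 6 of its points lie at 3100 or more. The large point near the left end at a score of 115.87 is the widest peak of the chromosome.

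Across the whole chromosome, widths and scores were close to those of the other autosomes. The median width was 1562 bp (1508 to 1654, quartiles 1151 and 2391) against 1502 bp (1470 to 1535). The median score was 369 (327 to 443) against 333 (311 to 362). Both pairs of intervals overlapped. Among the single autosomes the median score ran from 283 on V and 321 on I to 370 on II and 381 on IV.

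III was richer than the other autosomes pooled in each score class below the ceiling, most of all from 500 up to 3100, but not in the ceiling class itself. III held 1.29 times the density of peaks scoring from 50 up to 100 (1.08 to 1.53), 1.31 times that of scores of 100 to under 250 (1.12 to 1.53), and 1.24 times that of scores of 250 to under 500 (1.02 to 1.496). The ratio reached 1.70 (1.41 to 2.04) for scores of 500 to under 1000, and it was 1.61 (1.35 to 1.91) for those of 1000 to under 3100. In the ceiling class it was 0.963 (0.733 to 1.25), with 5.01 peaks per Mb on III against 5.20 elsewhere. Taken as 1 class, scores from 500 up to 3100 gave 1.65 (1.46 to 1.87), an interval that overlapped neither that of the ceiling class nor the 1.29 (1.16 to 1.42) of all scores under 500. This joining of classes was chosen after their values were seen. The single autosomes did not all follow the pool. Chromosome I was denser than III in the 3 classes under 500, with 12.95, 16.2 and 11.8 peaks per Mb against 12.1, 14.96 and 10.2. From 500 up to 3100, III held 24.6 peaks per Mb (22.1 to 27.4) and I 20.9 (18.6 to 23.3), intervals that overlap. The intervals of II, IV and V lay below that of III there. In the ceiling class III lay above II (4.53 per Mb) and V (3.88) and below I (5.78) and IV (6.87).

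**Figure D4:**
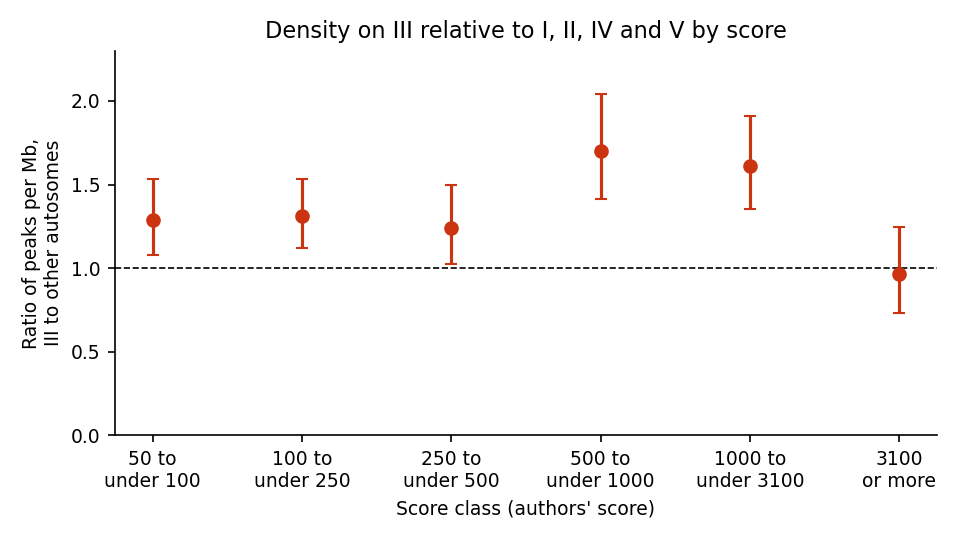
Ratio of peaks per Mb on III to that on I, II, IV and V together (y axis) for 6 classes of the authors' score (x axis), with Clopper-Pearson 95% intervals. The ratio lies between 1.24 and 1.70 in the 5 classes below 3100 and at 0.963 in the class of 3100 or more.

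The ceiling class made up 69 of the 920 peaks of III, or 7.5% (5.88 to 9.40), against 10.6% (9.60 to 11.7) on the other autosomes. Of these 69 peaks, 63 had exactly 3100 and 6 a larger number. Chromosomes I and II lay at 8.55% and 8.97% with intervals that overlapped that of III, while IV held 14.9% (12.5 to 17.5). Among peaks of 500 or more, 69 of 408 on III (13.4 to 20.9%) and 357 of 1378 elsewhere (23.6 to 28.3%) were in the ceiling class. IV contributed 120 of those 357 peaks. Against I, II and V without it, the share among peaks of 500 or more was 23.2% (20.6 to 25.9), which the interval of III narrowly overlapped, and the density ratio of the ceiling class was 1.08 (0.815 to 1.42). Leaving out IV here was chosen after seeing the data.

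Broad peaks were denser on III than on the other autosomes pooled, as were all peaks together. For peaks under 1000 bp the ratio was 1.26 (0.961 to 1.64), an interval that includes 1. Peaks of at least 5000 bp numbered 44 on III, or 3.19 per Mb (2.32 to 4.29), against 1.85 per Mb on the other autosomes, a ratio of 1.73 (1.20 to 2.45) whose interval includes the 1.36 of all peaks. Singly, I (2.46 per Mb, 1.73 to 3.39), II (2.10, 1.44 to 2.97) and IV (1.89, 1.30 to 2.65) had intervals that overlap that of III. That of V (1.20, 0.776 to 1.77) did not. Broad peaks made up 4.78% of the peaks of III (3.50 to 6.37) and 3.78% elsewhere (3.16 to 4.48), and these intervals overlap. Of the 44, 19 were in the ceiling class (43.2%, 28.3 to 59.0), against 82 of 127 elsewhere (64.6%, 55.6 to 72.8), again with overlapping intervals. The share was 50% on II (31.9 to 68.1) and 68% to 70.3% on I, IV and V, with intervals that overlap that of III. From 2500 up to 5000 bp the shares were 21.6% and 27.9%, and from 1500 up to 2500 bp 4.24% (2.21 to 7.29) and 9.14% (7.43 to 11.1). In the latter class the pooled intervals did not overlap, and the median score was nonetheless 515 on III against 459 elsewhere. Taken singly, I (5.94%, 3.61 to 9.12), II (7.47%, 4.49 to 11.5) and V (11.1%, 7.25 to 16.1) had intervals that overlap that of III. Only that of IV (13.5%, 9.34 to 18.6) lay clear of it. The ceiling peaks of III had a median width of 3721 bp, from 1088 to 11361 bp, against a median of 3286 bp on the other autosomes.

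Of the 10 widest peaks of III, all but the widest scored at least 1866. The widest, 12326 bp from 321364 to 333689 in the left arm, scored 115.87, and it was the 1 broad peak of III with a score under 500, against 4 of 127 on the other autosomes. Next came 11361 bp from 3862285 to 3873645 and 10100 bp from 9050840 to 9060939, both at 3100. A peak of 9912 bp from 4430397 to 4440308 scored 1866. Of the 10 peaks, 6 were in the ceiling class and 7 lay in the centre. Those with a score of 3100 also included 8443196 to 8451965, 10806734 to 10815056, 1618112 to 1626403 and 4170626 to 4177941. The remaining 2, 6566342 to 6574836 and 3717985 to 3725375, scored 2614 and 2384. Of all 44 broad peaks, 33 lay in the centre, 8 on the right arm and 3 on the left arm.

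At the ends of the list, the first peak of III ran from 2 to 635 with a score of 331 and was followed by a stretch without a peak up to 61794. The last peak ran from 13766300 to 13771876, over 5577 bp and with a score of 3100. The largest listed number on III, 3193, belonged to a peak of 2482 bp from 13641789 to 13644270, also near the right end. The peaks with the next numbers lay at 3067585 to 3070660, with 3190, and at 4751687 to 4755927, with 3159. Since 3100 may be a ceiling that stands for larger values, these 3 cannot be called the strongest.

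In windows of 100 kb, III had no empty window. Each of its 137 complete windows held at least 1 peak, while 45 of the 684 windows of the other autosomes held none, namely 27 of 208 on V, 10 of 152 on II, 4 of 150 on I and 4 of 174 on IV. Windows with 10 or more peaks made up 21.9% on III (30 of 137) and 20% on I, against 8.55% on II, 6.32% on IV and 1.92% on V. Of the 30 windows on III, 25 lay in the centre, 4 on the right arm and 1 on the left arm. Of the 16 windows of III with 2 peaks or fewer, 10 lay on the left arm.

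The 4 fullest windows of 100 kb lay in the centre. The window from 9800001 to 9900000 held 14 peaks with a median score of 659 that covered 33.6% of its bases. Those from 5100001 to 5200000, 9400001 to 9500000 and 8800001 to 8900000 also held 14 peaks, with median scores of 213, 851 and 246, and 26.4%, 24.4% and 23.4% of bases covered. Another 4 windows held 13 peaks. The one with the most bases covered, from 8300001 to 8400000, had 28.8% of its bases in peaks and 2 peaks in the ceiling class, and another, from 10400001 to 10500000, lay on the right arm. Windows with like counts thus differed several-fold in median score.

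The emptiest windows held 1 peak each. In the left arm they began at 1100001, 1300001, 1700001 and 2000001, with scores of 183, 324, 89.2 and 533 for their single peaks. The fifth ran from 8500001 to 8600000 in the centre, inside the 1 Mb window with the most peaks on the chromosome, and its peak scored 106. Dense and nearly empty stretches of 100 kb therefore lay side by side in the centre of III.

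**Figure D5:**
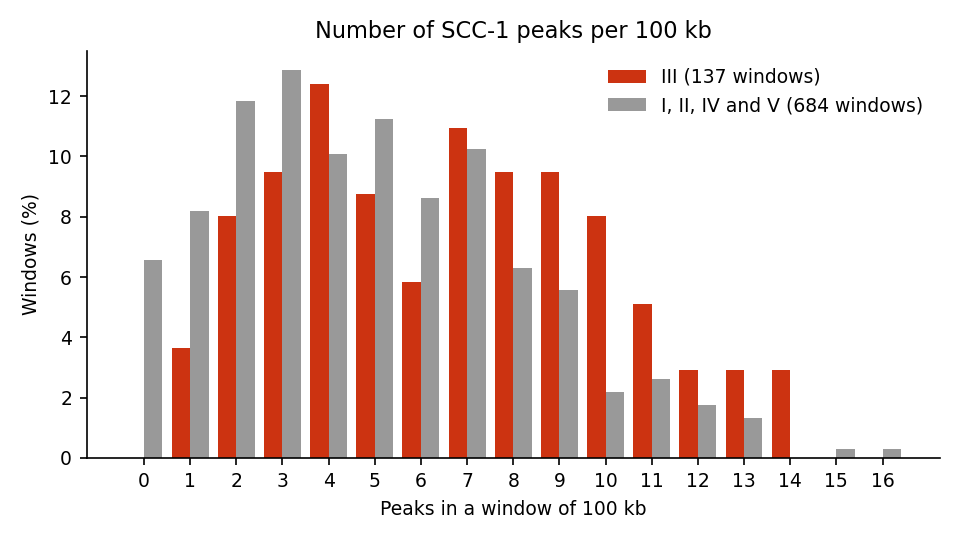
Share of windows of 100 kb (y axis, %) by the number of SCC-1 peaks they hold (x axis), for III (137 windows) and for I, II, IV and V together (684 windows). No window of III is empty, and 21.9% hold 10 or more peaks against 8.48% elsewhere.

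Long stretches without a peak took up less of III than of the other autosomes pooled. The median distance from the end of one peak to the start of the next was 5662 bp (quartiles 1725 and 16385), against 7145 bp (1694 and 22630) on the other autosomes, so that the lower quartiles were nearly the same and the upper ones differed. Stretches of at least 50 kb numbered 49, or 3.56 per Mb (2.63 to 4.70), against 4.69 per Mb (4.20 to 5.24), intervals that overlap, and they took up 26.9% of III against 42.5% elsewhere. Chromosome I had fewer, at 2.99 per Mb and 24.96% of its length. Those of at least 100 kb numbered 5, or 0.363 per Mb (0.118 to 0.847), against 1.25 per Mb (1.003 to 1.55). At this limit I stood at 0.598 per Mb (0.273 to 1.13), II at 1.25 (0.751 to 1.95) and IV at 1.26 (0.790 to 1.91). Each of these intervals overlaps that of III, whereas that of V, at 1.73 (1.21 to 2.39), does not.

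The long stretches took up more of the left arm than of the rest. The left arm held 21 of the 49, which together made up 49.6% of its length. The 18 in the centre made up 19.6% of it, and the 10 on the right arm 18.6%. The longest stretch, 151 kb from 1626404 to 1777091, began directly at the right edge of the 8292 bp peak of score 3100 and ended at a peak of 1118 bp with a score of 89.2. Further long stretches in the left arm ran from 911542 to 1045103, over 134 kb, and from 1208594 to 1320225, over 112 kb. In the centre, 141 kb were empty from 6728332 to 6868927 and 101 kb from 9229267 to 9330749. Which of these bases uniquely placed reads can reach is not in the list, and its part in the stretches was not tested.

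Of the 5 most isolated peaks with a neighbour on both sides, 4 lay on the left arm. The first and last peak, which have 1 neighbour each, were left out. The peak from 1320226 to 1321296 had its nearer neighbour 87.5 kb away and scored 324. Those from 1777092 to 1778209, 2031172 to 2033401 and 490844 to 491753 stood 80.8, 67.1 and 62.3 kb from theirs, with scores of 89.2, 533 and 96.3. The fifth, from 9330750 to 9331758 in the centre, stood 58.2 kb from its nearer neighbour and scored 90.4. Their widths ran from 910 to 2230 bp, and the widest of them, with the score of 533, lay above the medians of III in both measures.

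Local chains of peaks held a similar share of the peaks on III and elsewhere at the limit used. A chain was taken as a run of peaks with less than 2000 bp between each and the next. On III 434 peaks, or 47.2% (43.9 to 50.5), belonged to 183 chains, against 46.4% (44.7 to 48.1) on the other autosomes. Per Mb there were 13.3 chains on III, 13.4 on I and 6.81 to 10.2 on V, IV and II. Of the 183 chains, 129 held 2 peaks, 42 held 3, 10 held 4 and 2 held 5, while chains of up to 9 peaks occurred on II. The share of chains with 3 or more peaks was 29.5% (23.0 to 36.7) against 30.4% (26.9 to 34.2). With a limit of 5000 bp in place of 2000 bp, the share in chains was 71.3% (68.3 to 74.2) on III against 65.9% elsewhere, so the closeness of the 2 shares depends on that limit.

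Within III, chains followed the density. In the centre 53.6% of the peaks were in chains (49.4 to 57.8), on the right arm 43.6% (37.1 to 50.3) and on the left arm 27.7% (20.5 to 35.8). This is 18.2, 11.9 and 4.94 chains per Mb. A denser stretch places more peaks within 2000 bp of each other by itself, and the share was not corrected for that. Peaks in chains were wider than single peaks, with medians of 1695 bp (1607 to 1823) and 1462 bp (1391 to 1535). The same held on the other autosomes pooled, with medians of 1591 bp (1536 to 1653) and 1432 bp (1398 to 1472). On III the median scores of 422 (340 to 517) in chains and 348 (282 to 411) for single peaks had overlapping intervals, and the ceiling class made up 7.37% and 7.61%.

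Over all chains of III the highest score was at the median 5.30 times the lowest, against 5.17 times on the other autosomes. The chains named here were picked for their number of peaks or their span. The chain with the longest span of III, and 1 of its 2 chains of 5 peaks, ran over 18969 bp from 8967199 to 8986167, and peaks filled 81.1% of it. Its peaks scored 61.3, 1540, 1653, 190 and 1413 from left to right, and the last was 6679 bp wide. The other chain of 5, from 3695021 to 3705778, held lower scores of 671, 166, 120, 287 and 326 in peaks of 1014 to 2156 bp. In the first chain low peaks lay among high ones, whereas no peak of the second reached 700.

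The other chains named for their number of peaks or their span each held scores far apart. The chain from 4781624 to 4796725 scored 2140, 58.5, 1432 and 87.1, and that from 12443984 to 12457942 on the right arm scored 71.4, 541, 2777 and 1541. From 7699851 to 7712572 the scores were 225, 128, 169 and 1997. The chain from 3789332 to 3802061 scored 3100, 160.8 and 921. The widest peak of III was itself the second of a chain of 2, from 317331 to 333689, behind a peak of 2674 bp with a score of 2248. The highest score was at least 10 times the lowest in 57 of the 183 chains (31.1%, 24.5 to 38.4), against 28.6% (25.1 to 32.2) elsewhere. Of the 69 ceiling peaks, 32 were in chains, and 3 chains held more than 1 of them. Across neighbouring peaks less than 2000 bp apart, the scores had a Spearman's rho of -0.12 on III (251 pairs) against 0.05 on the other autosomes (916 pairs), where single chromosomes ran from -0.02 on II to 0.13 on IV. These weak correlations are given as a description, since pairs share peaks and are not independent.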

How the data were processed

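ChIP-seq with an antibody to SCC-1 gave the list. Per the labels' protocols, ground frozen worms were fixed with 1% formaldehyde for 10 minutes and sonicated, and 5 µg of antibody was used. Peaks were called with MACS on WormBase WS220, per the file header and source column; BWA and ce10 stand in the submitters' processing notes. Not given in the sources used here are versions, the calling threshold and whether the input was a control. The score of each peak is the value the authors deposited. No read counts were used, so the depth is unknown, and no genome of the build was used, so genes were not assigned to peaks and no sequence was read.

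Positions are WS220, counted from 1. The end of the last peak stood for the chromosome length, and peaks were placed by midpoint. Intervals are 95% (Poisson, Clopper-Pearson or order-statistic), cover counting error, and no p-value was computed over peaks. The procedures were tested on simulated data. The chromosome and the definitions were chosen with earlier results of these data known. Named were the 10 widest peaks, the 3 with the largest score, the first and last, and the 5 extremes of chains, stretches, isolated peaks and windows. The scores were classed at 50, 100, 250, 500, 1000 and 3100. Software comprised Python 3.11.15, pandas 2.3.3, scipy 1.17.1, matplotlib 3.10.9 and numpy 2.4.6.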

Additional observations from a re-analysis of the deposited data

How the results depend on the processing

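With 1 library, no replicate could be left out. No paired analysis was possible because the ChIP and input libraries are 1 each and no result compares them. The density ratio of III to the other autosomes (1.36) stayed above 1 in all 7 alternatives: 1.51 per protein-coding gene, 1.53 without I, 1.23 without V. In the higher-scoring 50% of peaks, coverage was 9.31% against 6.28% elsewhere, median width 2147 bp against 2079, the ceiling share 14.2% against 21.2% and the share in chains 26.1% against 26.6%, and the median score of III turned from higher to lower, 1019 against 1102. That set is chosen by the score itself. With a score of at least 1000 in place of 3100 the share was 26.96% on III and 27.1% elsewhere, so the lower share of III was not seen at that limit. With arms as the outer 2 of 3 parts (66.7% of the length), 59.1% of peaks lay on them. The share in chains was 42.0% with peaks under 200 bp apart merged, 32.4% under 1000 bp and 71.3% under 5000 bp, against 39.98%, 32.3% and 65.9% elsewhere. Stretches of at least 25 kb numbered 142, or 10.3 per Mb (8.68 to 12.2) against 11.2 elsewhere. A shortage in number on III was therefore not detectable at that limit. They took up 49.9% of III against 65.2% elsewhere. Stretches of at least 100 kb numbered 5. The ratio of left to right arm, added after seeing the data, ran from 0.516 in the higher-scoring 50% to 0.738 with 3 parts, each interval under 1. Of 41 alternative values 26 were counted as unchanged. The limit was the main interval, 1.5 times the main count or, for coverage, a set fraction of the main value. Some of the 26 could not have moved. Leaving out another autosome does not touch the median width or score of III, only the medians beside them. Merging peaks under 200 bp apart cannot alter stretches of at least 50 kb. The count of 26 is therefore not a measure of how robust the results are. Arm shares were compared after division by the arms' share of the length.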
